A study of Caenorhabditis elegans with 8 samples.

Results

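The 10 genes described here are hsp-3, hsp-4, xbp-1, ire-1, pek-1, atf-6, crt-1, enpl-1, pdi-2 and dnj-27, which carry the unfolded protein response of the endoplasmic reticulum (ER) in Caenorhabditis elegans. They were listed by name as genes of the pathway, with earlier results of these data known, and all 10 were found among the 25478 genes that the array annotation names singly. Each is measured by 1 feature, a set of probes summarised to a single intensity. All 10 lay above an intensity of 32 (a log2 level of 5) on every array, with the floor of the scale near 18. The dimmest, pek-1, dnj-27 and atf-6, were the closest to that floor. No other feature followed a member within 0.05 log2 units on all 8 arrays.

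Total RNA was profiled on 8 single-colour Affymetrix arrays (C. elegans Gene 1.0 ST), with 4 strains under 2 RNAi treatments and 1 array in each of the 8 groups. Worms of every group were grown at 20 °C and fed control or ash-2 RNAi bacteria for 3 days, from the egg to the young adult. By the labels, RNAi acts throughout the wild type N2, in the intestine of VP303, in muscle of NR350 and in neurons of TU3401. As background, VP303 and NR350 are known as rde-1 mutants in which a transgene restores the Argonaute RDE-1 under the nhx-2 promoter in the gut or the hlh-1 promoter in muscle. TU3401 is known as a sid-1 mutant with the dsRNA channel SID-1 supplied under the neuronal unc-119 promoter, so that strains differ from N2 in mutation and transgene as well as in the tissue of RNAi. The tissue labels name where RNAi acts and not what was dissected: of 25 marker genes of intestine, body wall muscle, neurons, germ line and hypodermis, 21 exceeded an intensity of 32 on all 8 arrays, and ges-1, unc-104, dpy-7 and bli-1 did not.

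The median intensity of an array was 21.1 to 21.6, and of the 27792 features 31.3% averaged above 32. The signal of ash-2, the RNAi target, whose product belongs to a histone H3 lysine 4 methyltransferase complex, went against a knockdown: its log2 level was 7.23, 7.21, 7.19 and 6.94 on the control arrays of N2, VP303, NR350 and TU3401 and 7.52, 7.87, 8.07 and 7.63 on the others. The treated arrays are therefore called the arrays labelled ash-2, and each direction of response rests on that label. With 1 array per group, the treatment effect has the 4 strains as its only repeats, and a strain level has its 2 arrays. No label names separate cultures, so p-values measure only the spread between these arrays, and the number of arrays limits the precision.

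Proteins that enter the secretory pathway fold in the ER lumen with the help of chaperones, lectins and disulfide isomerases. When unfolded protein accumulates, 3 sensors in the ER membrane respond: IRE-1 cuts xbp-1 mRNA so that it encodes an active transcription factor, PEK-1 (PERK) phosphorylates the translation factor eIF2α, and ATF-6 is cleaved to release its transcription factor domain. In worms the gut is a main site of this response, and hsp-4, a BiP homolog, is its customary reporter. A gene-level intensity does not separate spliced from unspliced xbp-1 mRNA, nor does it measure the activity of a sensor.

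The levels of 3 of the 10 genes, xbp-1, atf-6 and pdi-2, differed among the strains, and none passed the test for a common response to the treatment. For 6 of the 10 the 4 strain means spanned more than the largest treatment difference within a strain, for 1 (crt-1) the same, and for hsp-4, pek-1 and dnj-27 less. How many of all features had such a span was not counted, so it is not read as a trait of these genes. Of all features, 8.42% passed the limma F test among strains and 0% the test of the treatment. The plot of all values by array shows the spans: the paired points of a strain mostly lie close together, while xbp-1 and atf-6 drop in TU3401 and hsp-3 and pdi-2 stand high in NR350. The whole range over the 8 arrays ran from 0.22 log2 units for the calcium-binding lectin gene crt-1 to 0.89 for xbp-1, a 1.16-fold and a 1.85-fold span.

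**Figure D1:**
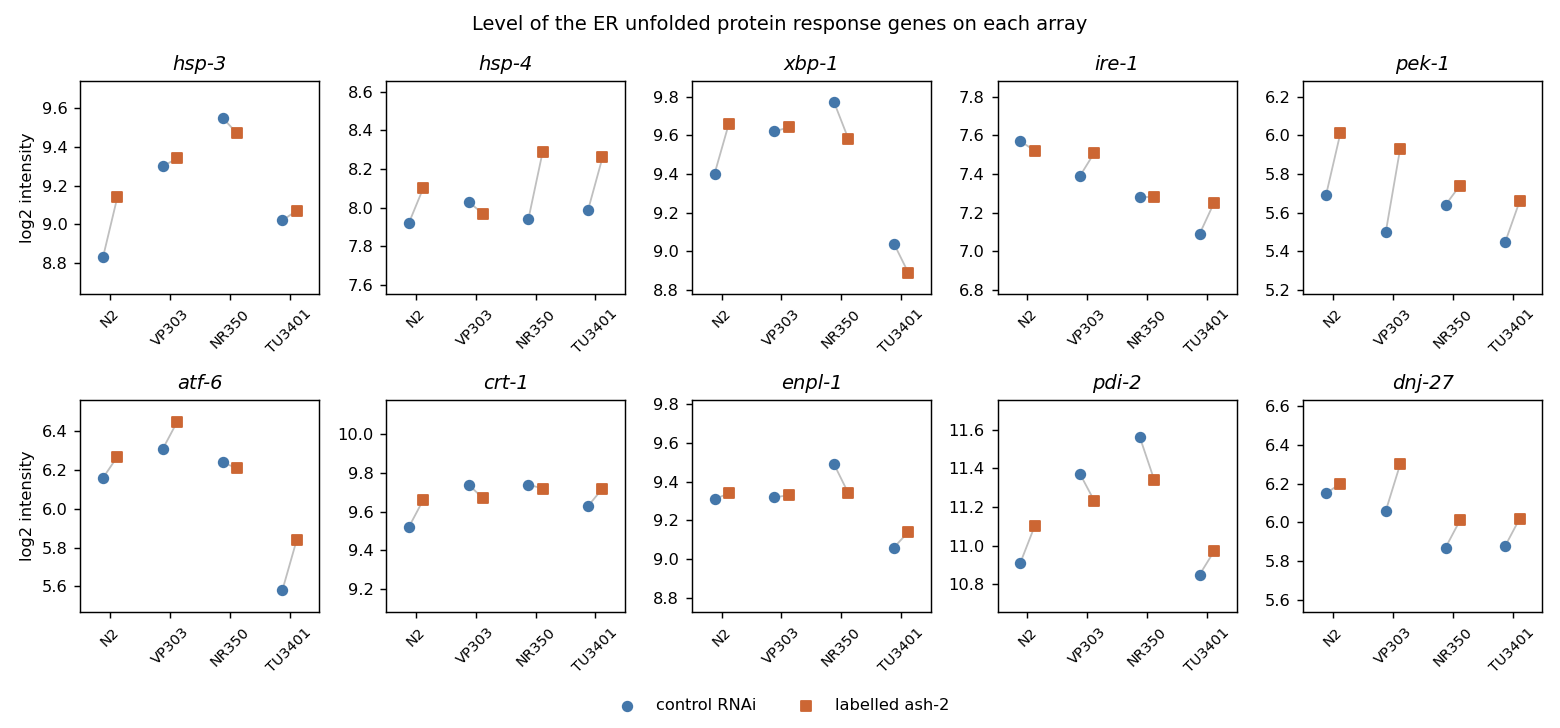
Log2 intensity (y axis) of the 10 genes on each array, by strain (x axis). Circles are control arrays and squares arrays labelled ash-2, 1 array each, joined by a line. Every panel spans the same number of log2 units. The TU3401 points of xbp-1 (9.04 and 8.89) and atf-6 (5.58 and 5.84) lie below those of the other strains.

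The 4 sensor and transcription factor genes xbp-1, atf-6, ire-1 and pek-1 all had their lowest strain mean in TU3401, as did the folding genes enpl-1 and pdi-2. The share of all features with that order was not counted. Features with a mean intensity above 32 also leaned low in TU3401, with a median difference of -0.095 from N2. In the F test among strains ire-1, pek-1 and enpl-1 did not pass (limma adjusted p = 0.316, 0.46 and 0.388). For xbp-1, which encodes the transcription factor made by IRE-1-dependent splicing, the log2 level on the control array and then on the array labelled ash-2 was 9.40 and 9.66 for N2, 9.62 and 9.64 for VP303, 9.77 and 9.58 for NR350, and 9.04 and 8.89 for TU3401. Both TU3401 arrays lay below all of the others, and the levels of the other 3 strains overlapped. In limma, xbp-1 differed among the 4 strains (F test, adjusted p = 0.0271). It fell by 0.71 in TU3401 relative to NR350 (SE 0.14, 1.64-fold lower, adjusted p = 0.0138) and fell by 0.66 relative to VP303 (SE 0.14, adjusted p = 0.0479), and its difference of -0.56 from N2 (SE 0.14) had an adjusted p of 0.114.

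The sensor gene atf-6 was likewise lowest in TU3401. With the control array given first, its log2 level was 6.16 and 6.27 for N2, 6.31 and 6.45 for VP303, 6.24 and 6.21 for NR350, and 5.58 and 5.84 for TU3401. The 2 TU3401 arrays again lay below the other 6. The strains differed in limma (F test, adjusted p = 0.0348). The level fell by 0.67 in TU3401 relative to VP303 (SE 0.13, 1.59-fold lower, adjusted p = 0.0354) and fell by 0.51 relative to NR350 (SE 0.13, adjusted p = 0.0441), while the difference from N2, -0.51 (SE 0.13), had an adjusted p of 0.122.

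The kinase genes ire-1 and pek-1 had smaller strain differences, none of which passed over all features. The ire-1 level was 7.57 and 7.52 for N2, 7.39 and 7.51 for VP303, 7.28 on both arrays of NR350, and 7.09 and 7.25 for TU3401. Its strain means descended from N2 to TU3401 in that order, with the largest difference -0.38 between TU3401 and N2 (SE 0.15, limma adjusted p = 0.256). The pek-1 level was 5.69 and 6.01 for N2, 5.50 and 5.93 for VP303, 5.64 and 5.74 for NR350, and 5.45 and 5.66 for TU3401, so that TU3401 lay below N2, the other pairs of strains overlapped, and the arrays labelled ash-2 were the higher of each pair.

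Among the chaperone genes, hsp-3 and pdi-2 were high in NR350. The 2 BiP homologs, Hsp70 chaperones of the ER lumen, did not share a pattern. For hsp-3 the log2 level was 8.83 and 9.14 for N2, 9.30 and 9.34 for VP303, 9.55 and 9.47 for NR350, and 9.02 and 9.07 for TU3401. Both NR350 arrays exceeded every other array, and VP303 came next. The level rose in NR350 relative to N2 by 0.53 (SE 0.14, 1.44-fold, limma adjusted p = 0.0458). For VP303 the difference from N2 was 0.34 (SE 0.14, adjusted p = 0.475), and over the 4 strains together hsp-3 did not pass (F test, adjusted p = 0.0865).

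The second BiP gene, hsp-4, was level across strains. Its values were 7.92 and 8.10 for N2, 8.03 and 7.97 for VP303, 7.94 and 8.29 for NR350, and 7.99 and 8.26 for TU3401, and the 4 strain means lay within 0.13 log2 units (F test, limma adjusted p = 0.875). On the control arrays alone they lay within 0.11, against 0.72 for hsp-3. The reporter gene of the response was thus the member with the narrowest spread over the control arrays.

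The gene pdi-2 encodes a protein disulfide isomerase that in worms also serves as the beta subunit of collagen prolyl 4-hydroxylase. Its log2 level was 10.91 and 11.10 for N2, 11.37 and 11.23 for VP303, 11.56 and 11.34 for NR350, and 10.85 and 10.97 for TU3401. The N2 and TU3401 arrays overlapped, as did those of VP303 and NR350, and the 2 pairs of strains lay apart from each other. In limma the strains differed (F test, adjusted p = 0.029), and pdi-2 rose in NR350 relative to N2 by 0.44 (SE 0.11, 1.36-fold, adjusted p = 0.0362). In TU3401 it fell by 0.54 relative to NR350 (SE 0.11, adjusted p = 0.0154). In VP303 the difference from N2 was 0.29 (SE 0.11, adjusted p = 0.411).

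The remaining folding genes did not pass in the F test. The Hsp90 chaperone gene of the ER, enpl-1, had log2 levels of 9.31 and 9.34 for N2, 9.32 and 9.33 for VP303, 9.49 and 9.34 for NR350, and 9.06 and 9.14 for TU3401. Both TU3401 arrays were the lowest, yet the strain difference did not pass (F test, limma adjusted p = 0.388). The calreticulin gene crt-1 ran only from 9.52, on the N2 control array, to 9.74. The gene dnj-27, for an ER DnaJ protein with thioredoxin domains (ERdj5 in mammals), lay between 5.87 and 6.30, with N2 and VP303 means of 6.17 and 6.18 and NR350 and TU3401 means of 5.94 and 5.95.

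In the F test among the 4 strains, 3 of the 10 genes passed at an adjusted p under 0.05 (xbp-1, atf-6 and pdi-2), where 8.42% of all features and 21.5% of those with a mean intensity above 32 did. By pair of strains, 2 of 10 rose in NR350 relative to N2 (hsp-3 and pdi-2), against 4.02% of all features. In TU3401, 2 of 10 fell relative to VP303 (background 1.2%) and 3 of 10 relative to NR350 (background 4.53%). These backgrounds include dim features, whereas all 10 genes are among the brighter ones. With the 8693 features of mean intensity above 32 fitted alone, 2253 of the 8693 passed in NR350 against N2 in either direction. That is a larger share than the 2 of 10 members that passed, so the members show no excess there. In TU3401, 630 of the 8693 passed relative to VP303, with 2 members, and 2018 relative to NR350, with 4. Relative to N2, 0 of 10 passed in VP303 (0.64% of all features) and 0 of 10 in TU3401 (0.604%), and between NR350 and VP303 0 of 10 did (5.18%), with 0 of 10 also at an unadjusted p under 0.05 (16.7% of all features). At an unadjusted p under 0.05 in limma, 2 genes were higher in VP303 than in N2 (hsp-3 and pdi-2, background 4.96%). Likewise, 4 were lower in TU3401 than in N2 (xbp-1, ire-1, pek-1 and atf-6, background 7.35%). The 3 contrasts without N2 were added after the data were seen, and those that share a strain share its arrays.

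The overlap of the arrays restates the same values and was counted only for TU3401 below and NR350 above the others. Both TU3401 arrays lay below the other 6 for xbp-1, atf-6, ire-1 and enpl-1, 4 of the 10 genes, where 5.42% of all features and 10.4% of the brighter ones had that order. Both NR350 arrays lay above the other 6 for hsp-3 and enpl-1, 2 of 10, near the background of 8.96%. The median strain difference over the 10 genes was 0.054 for VP303, 0.101 for NR350 and -0.224 for TU3401, each relative to N2. Over all features these medians were 0.000, 0.001 and 0.009, and over features with a mean intensity above 32 they were -0.034, -0.080 and -0.095.

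**Figure D2:**
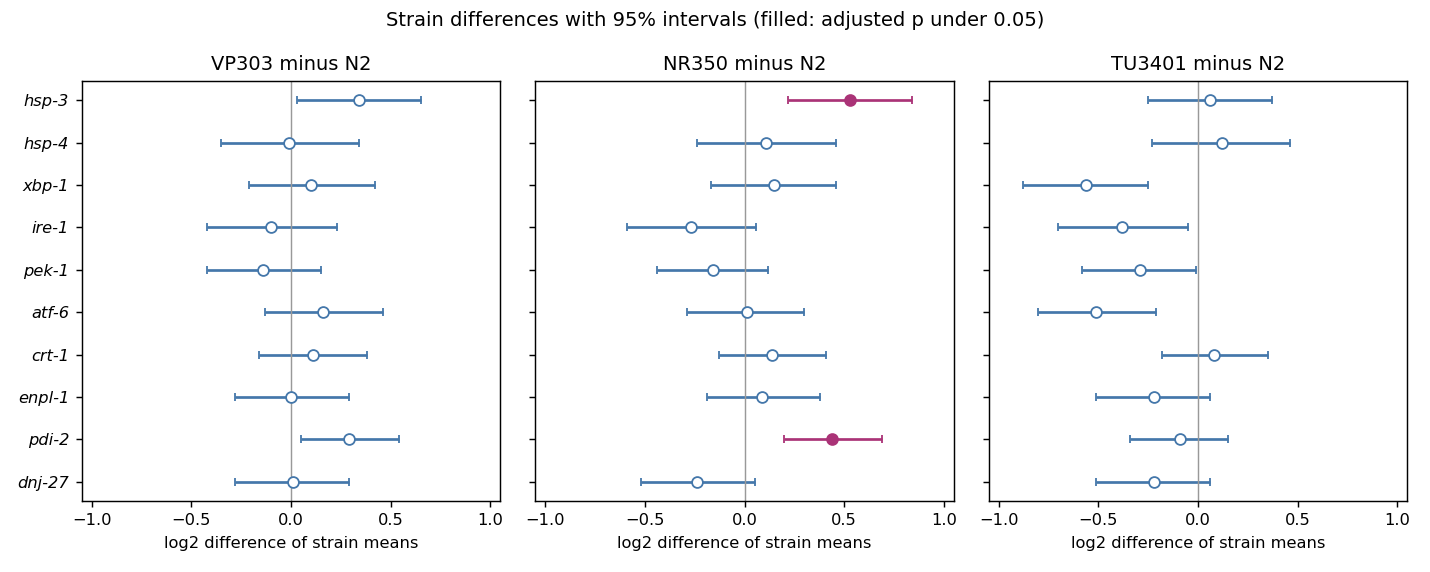
Difference between the mean log2 level of a strain and that of N2 (x axis) for each of the 10 genes (y axis), with 95% intervals from limma. Filled points passed at an adjusted p under 0.05. In NR350 these are hsp-3 (0.53) and pdi-2 (0.44). In TU3401 xbp-1 (-0.56) and atf-6 (-0.51) lie farthest from 0 and are open.

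The calls between strains were close to the threshold. Without the NR350 or without the TU3401 arrays, 0 of the 10 genes passed the F test over the remaining strains (at an unadjusted p under 0.05, 3 without NR350 and 2 without TU3401, against 15.5% and 20.4% of all features), and 2 passed without VP303. The difference of 2 strains is estimated from their own 4 arrays, so leaving out another strain bears on its p alone. For the NR350 rise of hsp-3 the limma adjusted p was 0.0609 without the VP303 arrays and 0.0521 without the TU3401 arrays. For that of pdi-2 it was 0.0574 with a robust variance prior and 0.136 with a prior that does not follow intensity. Relative to VP303, the TU3401 difference had an adjusted p of 0.0691 for xbp-1 and 0.0522 for atf-6 without NR350, and of 0.0563 for atf-6 without N2. The TU3401 difference of atf-6 from NR350 had an adjusted p of 0.0692 without N2 and 0.0573 without VP303. On the control arrays alone, xbp-1 differed by -0.36 between TU3401 and N2 and pdi-2 by 0.46 between VP303 and N2. Between NR350 and N2 the control arrays differed by 0.72 for hsp-3 and 0.65 for pdi-2. The fitted differences, 0.53 and 0.44, average these with smaller ones on the arrays labelled ash-2.

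Markers of several tissues moved with NR350. The summed intensity of the 5 body wall muscle markers was 6073 and 7097 on its arrays and between 3074 and 4016 on the others. For the 5 intestine markers it was 3266 and 3168 against 1906 to 2336, and for the 5 hypodermis markers 4120 and 4335 against 2283 to 3642. The 5 germ line markers were less far apart, at 9401 and 9841 against 7164 to 9308. The 5 neuron markers did not move, at 2384 and 2391 against 2103 to 2604. The part of these tissue differences in the NR350 levels of hsp-3 and pdi-2 was not tested. On the TU3401 arrays each of the 5 sums lay within the range of the other strains' arrays, with the exception of the germ line sum of 7164 on the control array. In RNA of whole worms, fewer cells of a type and less RNA per cell cannot be told apart.

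Set against the treatment, the 10 genes shared no response that passed. In limma with strain as a block, 0 of 10 had an adjusted p under 0.05, as did 0% of all features, and the smallest adjusted p of a member was 0.528. At an unadjusted p under 0.05 there was 1 member, pek-1, among the 3.75% of all features higher at that level. The median difference over the 10 genes was 0.069, against -0.003 over all features and 0.026 over those with a mean intensity above 32. Within N2 it was 0.159, within VP303 0.028, within NR350 -0.018 and within TU3401 0.127.

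For pek-1 the array labelled ash-2 was the higher one in all 4 strains, by 0.32, 0.44, 0.10 and 0.21 in N2, VP303, NR350 and TU3401 (mean 0.27 ± 0.14, SD, n = 4 strains, 1.20-fold). In limma its adjusted p was 0.528. The ER DnaJ gene dnj-27 was also higher in all 4, by 0.06, 0.25, 0.14 and 0.13 in the same order (mean 0.14 ± 0.08, limma adjusted p = 0.737). These were 2 of the 10 genes, where 7.72% of all features and 13.7% of the brighter ones were higher in all 4 strains. None of the 10 was lower in all 4, an order that 8.34% of all features had.

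The other members differed in sign or size between strains. For hsp-4 the differences in N2, VP303, NR350 and TU3401 were 0.18, -0.07, 0.35 and 0.28 (mean 0.19 ± 0.18, 95% interval of the limma fit -0.06 to 0.43, adjusted p = 0.722). VP303 was the exception in direction. For hsp-3 it was 0.31 in N2 and between -0.08 and 0.05 in the other strains (mean 0.08 ± 0.16, 0.00 without the N2 arrays). The transcription factor genes did not share a direction in TU3401, where xbp-1 differed by -0.16 and atf-6 by 0.26. Over the 4 strains xbp-1 averaged -0.02 ± 0.20 and atf-6 0.12 ± 0.12.

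The means of ire-1 (0.06 ± 0.10), crt-1 (0.04 ± 0.09), enpl-1 (-0.01 ± 0.10) and pdi-2 (-0.01 ± 0.20) lay near 0. The limma interval of the shared difference was -0.17 to 0.29 for ire-1, -0.15 to 0.23 for crt-1, -0.21 to 0.20 for enpl-1 and -0.18 to 0.16 for pdi-2. Each interval includes 0, and a shared difference of any size within it remains possible with these arrays. For pdi-2 the mean hid opposite signs, 0.20 in N2 and 0.12 in TU3401 but -0.14 in VP303 and -0.22 in NR350.

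**Figure D3:**
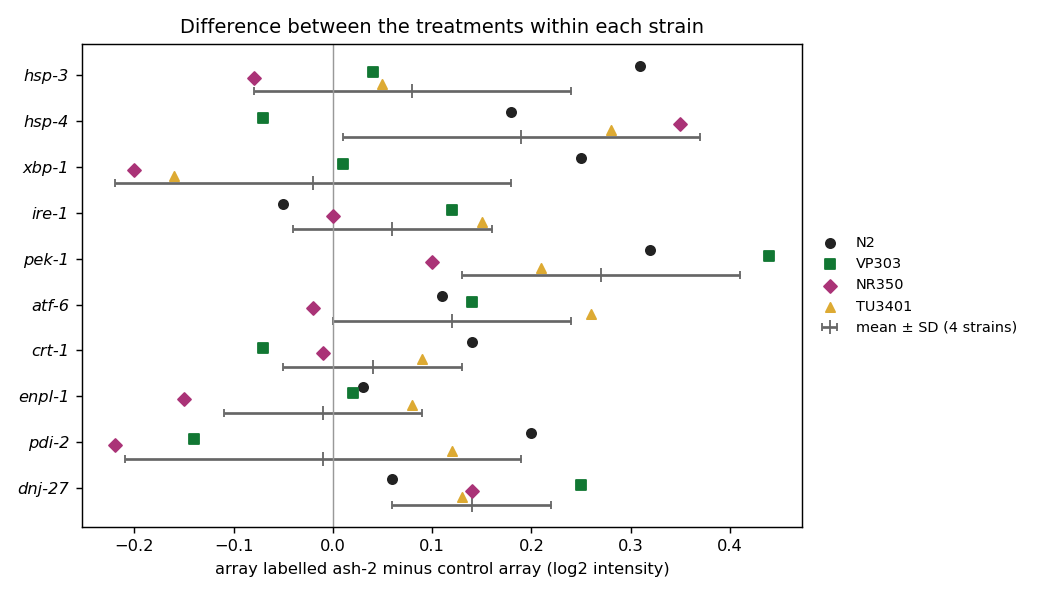
Array labelled ash-2 minus control array (x axis, log2 intensity) for each of the 10 genes (y axis). Each symbol is 1 strain and has no replicate, and the bar below is the mean ± SD over the 4 strains. For pek-1 and dnj-27 all 4 symbols lie to the right of 0, and for the other 8 genes they lie on both sides or at 0.

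The labels place RNAi in the gut in N2 and VP303 and elsewhere in NR350 and TU3401, so the response was also compared between these classes. No member passed in limma (0 of 10, smallest adjusted p 0.902, against 0% of all features), and 0 of 10 had an unadjusted p under 0.05, against 5.74%. The largest class differences were those of xbp-1, 0.31 (SE 0.19, 95% interval -0.10 to 0.73, 0.19 without the N2 arrays), and hsp-4, -0.26 (SE 0.22, 95% interval -0.74 to 0.23, -0.14 without the VP303 arrays). For xbp-1 the within-strain difference was positive in N2 (0.25) and VP303 (0.01) and negative in NR350 (-0.20) and TU3401 (-0.16).

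The Hsp70 genes of other compartments give a comparison for the BiP pair. In N2, VP303, NR350 and TU3401 the treatment difference was 0.49, 0.06, 0.29 and 0.30 for the cytosolic hsp-1 and 0.44, 0.21, 0.25 and 0.25 for the mitochondrial hsp-6. Both had a limma adjusted p of 0.417, and their means, 0.28 ± 0.17 and 0.29 ± 0.10, stood beside 0.19 ± 0.18 for hsp-4 and 0.08 ± 0.16 for hsp-3. In NR350, hsp-6 rose relative to N2 (0.68, SE 0.10, adjusted p = 0.0028), as hsp-3 did, whereas hsp-4 had a difference of 0.11 (SE 0.16, adjusted p = 0.824). The difference between these genes was not tested.

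A wider set of 61 genes of ER folding, export, degradation and translation control was examined with the same fits. For the treatment 0 of 61 passed in limma, and 6 (9.84%) had an unadjusted p under 0.05, against 7.99% of all features. In the list of PERK branch and eIF2 genes, gcn-1, whose product activates GCN-2, an eIF2α kinase other than PEK-1, had the largest mean difference. It was 0.63, -0.01, 0.71 and 0.95 in N2, VP303, NR350 and TU3401 (mean 0.57 ± 0.41, limma adjusted p = 0.417), the largest of the 61 genes. In the same list the transcription factor gene atf-4, translated when eIF2α is phosphorylated, was lower in all 4 strains (mean -0.15 ± 0.09). Of the subunits of the translocon-associated complex, trap-3 was higher by 0.24, 0.23, 0.16 and 0.15 (mean 0.19 ± 0.05, adjusted p = 0.504) and trap-1 by 0.29, 0.07, 0.23 and 0.17 (mean 0.19 ± 0.09). Over the 61 genes, 7 were higher and 3 lower in all 4 strains, 11.5% and 4.92%. Of all features 7.72% and 8.34% were, and of those with a mean intensity above 32 13.7% and 7.22%. The median difference of the 61 genes was 0.035, against -0.003 over all features and 0.026 over the brighter ones.

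In the remaining lists the extremes of the treatment difference were small. Of the cochaperones and chaperones, T14G8.3, of the Hsp70 family, had the highest mean (0.22 ± 0.06, in all 4 strains) and dnj-7 the lowest (-0.08 ± 0.24). Of the disulfide isomerases and oxidation genes beyond the members, pdi-3 had a mean of 0.12 ± 0.08 and the ER oxidase gene ero-1 of -0.14 ± 0.38. For ER-associated degradation the extremes were cdc-48.2, an AAA ATPase (0.29 ± 0.12), and png-1, a peptide N-glycanase gene (-0.10 ± 0.26). The glycoprotein glucosyltransferase genes uggt-1 (0.10 ± 0.14) and uggt-2 (-0.03 ± 0.04, at the floor of the scale) bounded the calnexin cycle, and the oligosaccharyltransferase subunits stt-3 (0.13 ± 0.17) and dad-1 (-0.17 ± 0.14) bounded theirs.

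By strain, NR350 had most of the calls against N2 in the wider set, as it had over all features. There 1995 features passed in NR350, 178 in VP303 and 168 in TU3401. Relative to N2, 12 of the 61 genes rose and 1 fell, where 4.02% and 3.16% of all features did. Of the 61 genes, 50 had a mean intensity above 32. With the 8693 such features fitted alone, 2253 of them passed in either direction, a larger share than over all features. The wider genes were not counted in that fit, so an excess over brighter features is not shown. Of 11 genes of the translocon and signal peptidase, 4 rose: dnj-29, a Sec63 homolog, trap-2, sec-61.B and trap-1. The largest was dnj-29, with a mean log2 level of 9.01 in NR350 and levels between 7.76 and 8.01 on the other 6 arrays (difference from N2 1.11, SE 0.15, limma adjusted p = 0.000989). The gene that fell was cup-2, a Derlin of ER-associated degradation, with a mean of 8.44 in NR350 and levels of 9.01 to 9.22 elsewhere (-0.78, SE 0.14, adjusted p = 0.00736).

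Translation control and folding genes were also among the NR350 calls. The level of atf-4 was 10.07 and 9.96 in NR350 and 9.40 and 9.34 in N2 (0.64, SE 0.12, limma adjusted p = 0.00921), and gcn-1 differed by 0.81 (SE 0.21, adjusted p = 0.04). Of the folding genes, T14G8.3 rose by 0.53 (SE 0.13, adjusted p = 0.0311) and the disulfide isomerase gene C14B9.2 by 0.58 (SE 0.14, adjusted p = 0.0261). Relative to NR350, TU3401 had lower levels of C14B9.2 (-0.77, SE 0.14, adjusted p = 0.00687) and of pdi-6, another disulfide isomerase gene (-0.64, SE 0.15, adjusted p = 0.0233). Of the 61 genes 10 were lower and 1 higher in that contrast, against 4.53% and 2.22% of all features. With the 8693 features of mean intensity above 32 fitted alone, 2018 of them passed there in either direction, a larger share than over all features. The wider genes were not counted in that fit either. Relative to N2, 1 of the 61, trap-2, passed in TU3401 (0.60, SE 0.12, adjusted p = 0.0485), against 0.604%.

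The abu genes take their name from activation in worms whose unfolded protein response is blocked, and several of them are known to be expressed in the developing pharyngeal cuticle. Of 14 measured, 5 had a mean intensity above 32, and 4 rose in NR350 relative to N2, where 4.02% of all features did. The largest were abu-7, at 7.77 and 6.96 in NR350 and 5.19 and 5.67 in N2 (1.93, SE 0.24, limma adjusted p = 0.000781), and abu-6 (1.87, SE 0.20, adjusted p = 0.000297), which lay under an intensity of 32 in N2, so that its difference depends on the floor. The members of this family resemble each other, and how the probes divide their signal is uncertain. In NR350 both were lower on the array labelled ash-2, by -0.81 for abu-7 and -0.75 for abu-6.

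**Figure D4:**
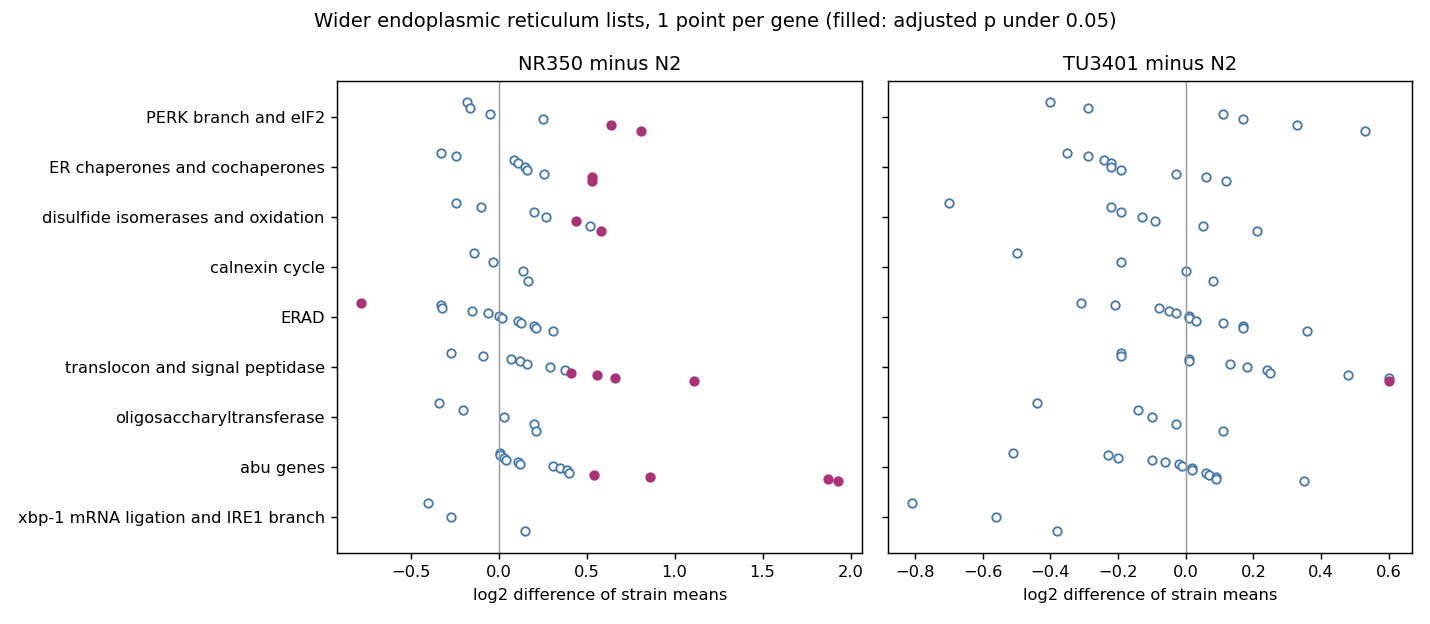
Difference from N2 of the mean log2 level in NR350 (left) and TU3401 (right), by gene list (y axis), 1 point per gene, with the 10 genes included in their lists. Filled points passed limma at an adjusted p under 0.05. The highest points in NR350 are abu-7 (1.93), abu-6 (1.87) and dnj-29 (1.11), the lowest is cup-2 (-0.78), and 1 point, trap-2 (0.60), passed in TU3401.

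The genes most like a member over the 8 arrays were sought by the root mean square distance between log2 profiles centred on each gene's own mean, among 7983 genes. For xbp-1, the member with the widest range, these were F44E2.4 (0.048), lin-59 (0.063) and bus-5 (0.080). For hsp-3 they were hpo-34 (0.053), egal-1 (0.066) and spc-1 (0.067), and for hsp-4 nmt-1 (0.048), ain-2 (0.054) and rbm-26 (0.060). The members were left out of this search, so it does not show how much they resemble each other. None of these 9 genes belongs to the wider lists.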

How the data were processed

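Per the series' design text and the submitters' processing notes, the authors processed the arrays in Affymetrix GeneChip Command Console 2.0 and GeneSpring GX 11.0.2 with RMA, and deposited 1 normalized intensity per feature on a linear scale. Any offset, the summarisation level and the genome build are not stated in what was used here, so no coordinates are printed, and no sequence table was used. The lowest deposited intensity is 18.0, so differences of dim features are understated. Log2 of the deposited intensity was tested over all 27792 features, with nothing added or filtered, using limma 3.58.1 in R 4.3.3 (lmFit, eBayes with a trend, two-sided, Benjamini-Hochberg over all features, threshold 0.05). The model held strain and treatment (3 residual degrees of freedom), and for the class contrast a response per class (2). Names came from the platform annotation, taking features with 1 symbol, and of several the one with the highest mean. Of 66 further genes listed, 61 were matched. The 10 genes, the lists, the tests and the rule for named genes (the 10 members, list extremes and called genes up to 4 per list, and 3 closest profiles) were chosen with earlier results of these data known. The code was tested on simulated data. Alternatives tried were other scalings, a floor subtraction, filters, variance priors, no strain block, leaving out a strain and a threshold of 0.10.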

Additional observations from a re-analysis of the deposited data

Results flagged for a closer look

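Within-strain treatment differences were screened for a single strain far from the other 3, over the 10 genes and 68 others. Those were the 61 genes of the wider lists and hsp-1, hsp-6, ash-2, rde-1, sid-1, rol-6 and sur-5. None of the 10 stood apart in this way, and 3 of the other 68 did, where chance flags about 1 in 20 groups of 4. The Derlin gene cup-2 had a difference of -0.27 in NR350, against 0.00 to 0.05 in the other strains. The translocon-associated subunit gene trap-4 had -0.17 in VP303, against 0.13 to 0.16. The abu-1 gene, dim on these arrays with a mean log2 level of 4.46, had 0.43 in NR350, against -0.05 to 0.03. Each of these differences rests on 1 pair of arrays.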

How the results depend on the processing

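Under quantile normalization, median centring and the floor subtraction, the strain differences recomputed for the members kept their direction. With 16 subtracted, the shared treatment difference of pek-1 was 0.38 in place of 0.27. The TU3401 difference of atf-6 from VP303 was then -0.89 in place of -0.67. The priors, the filters and leaving out another strain do not alter these estimates by construction and bear on the calls alone, several of which did not hold. With eBayes without a trend, 1 member passed the F test among strains (965 features), 0 passed in NR350 against N2 (hsp-3 and pdi-2 lost) and in TU3401 against VP303 (xbp-1 and atf-6 lost, 126 features), and 1 passed in TU3401 against NR350 (xbp-1 and pdi-2 lost, 1240 features). That setting called 42 features in VP303 and 39 in TU3401 against N2, and 805 in NR350 against VP303. With a robust prior 1 member passed in NR350 against N2 (pdi-2 lost). After quantile normalization 0 passed in TU3401 against VP303 (xbp-1 and atf-6 lost). In TU3401 against NR350 that scaling lost atf-6 (limma adjusted p = 0.0845) and gained hsp-3 (limma adjusted p = 0.0498). With features of mean intensity above 32 only, 285 features passed in VP303 against N2 and 56 for the class difference, and with 1-symbol features only, 3 passed for the class difference and 2 for the shared treatment difference. The causes were not tested.

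Leaving out 1 strain at a time, the F test called 385 (without NR350) to 2107 features (without VP303) and 0 to 3 members. The shared treatment difference then called 0 to 25 features, with 25 without TU3401, and the class difference 6 (without TU3401) to 55 (without VP303), none of them a member. In NR350 against N2, 1 member passed without either other strain, and in TU3401 against VP303 0 to 1. The shared difference changed sign for xbp-1 (-0.11 to 0.04), enpl-1 (-0.03 to 0.04) and pdi-2 (-0.08 to 0.06). Without the strain block, 0 members and 0 features passed for the treatment, so that pairing the arrays by strain changed no call. No paired analysis by replicate number was possible because each group has 1 array. The number of arrays limits all of these tests.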
